A study of Caenorhabditis elegans with 2 samples.

Results

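RNase P and RNase MRP are related ribonucleoprotein enzymes, each built around 1 RNA. In Caenorhabditis elegans the gene rpr-1 is named for the RNase P RNA and mrpr-1 for the RNase MRP RNA, and these 2 of 46926 annotated genes are described here. They were chosen by name and by having peaks of the chromatin-bound protein AKIR-1 beside them. The measured values that selected them were summits within 500 bp of the gene body in the peak lists described below, so the signal, rank and position of those peaks are given as a description and carry no test.

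RNase P cuts the 5' leader from precursor transfer RNAs, and RNase MRP cuts precursor ribosomal RNA. The 2 RNAs fold around a similar core and share most of their protein subunits in yeast and humans. In vertebrates both RNA genes are transcribed by RNA polymerase III from promoters that lie upstream of the start, with a proximal sequence element bound by the SNAPc complex and a TATA box, as at the U6 gene. Transfer RNA genes use promoter boxes inside the gene instead.

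The experiment was chromatin immunoprecipitation with sequencing of AKIR-1, the worm akirin, a nuclear protein that takes part in transcriptional regulation. There was 1 group, of 2 biological replicates numbered 3 and 4. Both were whole young adults, 70 hours old and of mixed sex, synchronised as starved L1 larvae after bleaching, of strain IG1654, whose transgene frSi12, made from plasmid pNP157, sits on chromosome II. The tagged protein was expressed from the akir-1 promoter with a C-terminal GFP-FLAG tag and was precipitated with an antibody to GFP. The design has no second condition, so values were compared between replicates, between peaks and between genes. Chromatin came from whole animals, so signal from a few tissues and weak signal from many cannot be told apart. Whether the signal at a given peak came from binding of AKIR-1 was not tested.

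The authors deposited 1 peak list for replicate 3, 1 for replicate 4, 1 for the pooled replicates and 1 IDR-thresholded list. The first 3 lists held 30000 peaks each and the IDR-thresholded list held 400. IDR measures reproducibility between replicates, but the 400 peaks were exactly the 400 with the highest pooled signal, so a place in that list is a pooled rank and does not say that a single peak was strong in both replicates. These lists hold no read counts, so depth is unknown. The signal value is the authors' own score for a peak, and its scale differs between lists. It was therefore read as a rank within a list, 1 being the strongest, or as a multiple of that list's median. Each list held 12 to 18 mitochondrial peaks, among them many of the strongest.

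The rpr-1 gene (WBGene00045238) is 253 bp long and lies on chromosome I from 13463955 to 13464207 of ce11, on the plus strand. It has 1 exon and is annotated as an ncRNA. It sits inside a 2023 bp intron of ints-8, on the opposite strand, between exons that end at 13462738 and begin at 13464762. ints-8 encodes a subunit of the Integrator complex, which processes small nuclear RNAs. The nearest transcript start of ints-8, at 13464846, lies 639 bp beyond the end of rpr-1. The mrpr-1 gene (WBGene00045095) is 186 bp long, also of 1 exon and on the plus strand, on chromosome II from 7200233 to 7200418. It lies between genes, with E04F6.6 on the minus strand starting 668 bp upstream and pcrg-1 on the plus strand starting 131 bp after its end. The only other gene within 2000 bp is srd-56, named as a serpentine receptor gene, at 1598 bp.

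The mrpr-1 sequence is shown because its IDR-thresholded summit falls 3 bp before the start of the gene and because its upstream bases hold words discussed below. The stretch runs over chrII:7200133-7200432 on the plus strand of the RefSeq copy of the assembly, with 100 bases before the start, the 186 bases of the gene and a few bases after it. Capitals mark AACC and TGTC 7 bases apart, overlapping matches of TATATA, and runs of 4 T from the start onwards. The sequence of rpr-1 is not shown.

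mrpr-1: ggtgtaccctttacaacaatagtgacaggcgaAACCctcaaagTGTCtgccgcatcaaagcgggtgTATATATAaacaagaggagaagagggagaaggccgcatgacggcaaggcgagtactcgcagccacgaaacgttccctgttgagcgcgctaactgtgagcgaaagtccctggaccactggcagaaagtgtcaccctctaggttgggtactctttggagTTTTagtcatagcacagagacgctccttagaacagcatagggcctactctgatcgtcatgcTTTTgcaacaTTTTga

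Both RNA genes carried an IDR-thresholded peak with its summit close upstream of the start, 17 bp at rpr-1 and 3 bp at mrpr-1. In the single replicates the strongest mrpr-1 summits lay inside the gene. Summits lay within 500 bp of both genes in all 4 lists. By the same rule an IDR-thresholded summit was called at 1.45% of the 46890 nuclear genes, and a pooled summit at 47.1%. The share was 46.9% for replicate 3, 47.2% for replicate 4 and 32% for both replicates together. A summit from a complete list is thus common near any gene. As the genes were chosen on these summits, nothing is read from the counts of 2.

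At rpr-1 the signal value was 130.5 in the replicate 3 list, rank 24 of 30000, and 118 in the replicate 4 list, rank 38. It was 251 in the pooled list, rank 29, and the IDR-thresholded list carries that same peak with the same rank of 29 among 400. These values are 5.02, 4.75 and 5.64 times the median of the replicate 3, replicate 4 and pooled lists. The peak was near the top of all 4 lists. Without mitochondrial peaks its ranks were 14 in replicate 3, 20 in replicate 4 and 13 in the pooled list. Its q-value was the lowest in each list, 0.0867 in replicate 3, 0.0180 in replicate 4 and 0.0264 in the pooled list. That lowest value was shared by 433, 250 and 247 peaks, so the q-values do not order the strongest peaks.

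At mrpr-1 the strongest signal value within 500 bp was 72.8 in replicate 3, rank 205, and 50.7 in replicate 4, rank 733. The pooled list gave 124, rank 261, again the rank in the IDR-thresholded list. The replicate 4 value is 2.04 times the median of its list and the pooled value 2.78 times, and the replicate 3 value compares with a list median of 26.0. The replicates thus placed mrpr-1 further apart than rpr-1, and replicate 4 alone would not have put it among its 400 strongest peaks. The q-value was 0.0867 in replicate 3, 0.130 in replicate 4 and 0.0288 in the pooled list. The weakest IDR-thresholded peak had a signal value of 107.9 at pooled rank 400, and the strongest pooled peak outside that list had 107.8 at rank 401.

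**Figure D1:**
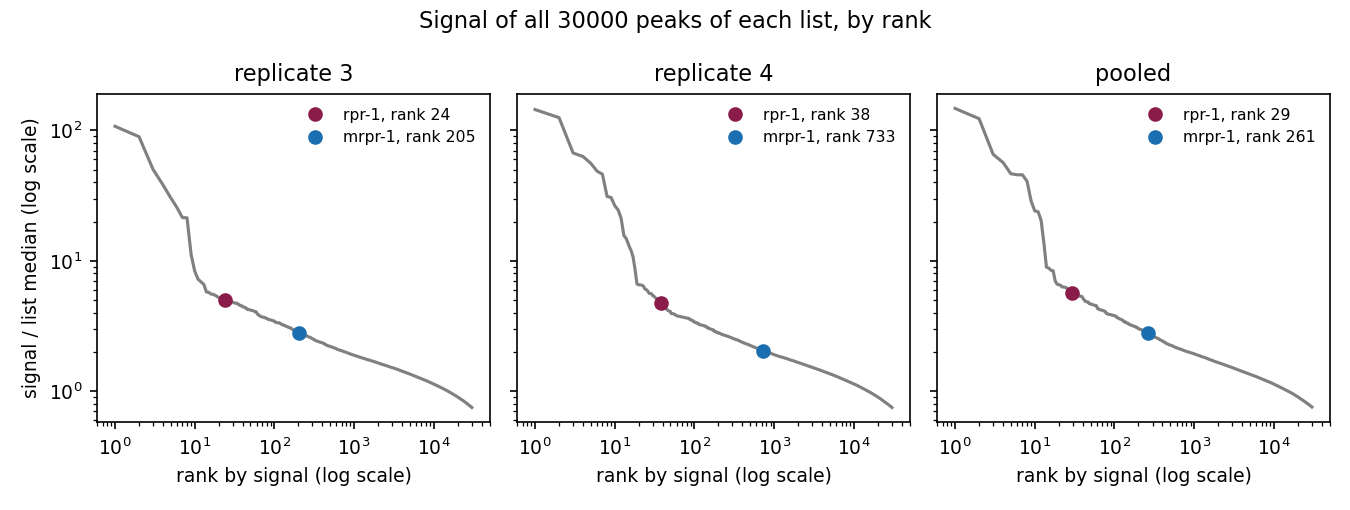
Signal value of each peak divided by the median of its list (log scale) against its rank in that list (log scale), for the replicate 3, replicate 4 and pooled lists. The grey line is all 30000 peaks, and points mark the strongest summit within 500 bp of rpr-1 (ranks 24, 38 and 29) and of mrpr-1 (ranks 205, 733 and 261), which lies lower on the curve in all 3 lists.

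The difference between the replicates at mrpr-1 can be read against the other nuclear IDR-thresholded peaks. All 384 overlapped a replicate 3 peak, whose median rank was 230.5 (quartiles 112 and 477). A replicate 4 peak overlapped 381, with a median rank of 232 (quartiles 113 and 438). In replicate 3, 173 of these peaks ranked above mrpr-1 and 13 above rpr-1, and in replicate 4 the numbers were 329 and 19. Of the 384, 189 were among the 400 strongest in both replicates, as rpr-1 was, and 83 in replicate 3 alone, as mrpr-1 was. A further 88 were in replicate 4 alone. A place among the 400 strongest in replicate 3 alone was therefore not particular to mrpr-1. Its rank of 733 in replicate 4 nevertheless lay past the upper quartile of 438. With 2 replicates of 1 group no test of the difference was made.

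The summits of rpr-1 were nearly at one position. They lay at 13463938 in replicate 3, 13463936 in replicate 4 and 13463938 in the pooled and IDR-thresholded lists. Relative to the annotated start these are 17, 19 and 17 bp upstream, and the replicate 3 peak lay wholly within the replicate 4 peak. Among the 384 nuclear IDR-thresholded peaks the median shift from the IDR-thresholded summit was 10 bp in replicate 3 and 7 bp in replicate 4, and 30 peaks had both replicate summits within 2 bp. rpr-1 is 1 of those 30. No other pooled summit lay within 2000 bp of it, and replicate 4 had 1 weak one 1757 bp upstream of its start, at rank 18599.

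The summits of mrpr-1 were spread over the gene. The pooled and IDR-thresholded summit was at 7200230, 3 bp upstream of the start. Replicate 3 had its strongest summit at 7200245, 12 bp inside the gene, and replicate 4 at 7200341, 108 bp inside it. The strongest peaks of the replicates overlapped by 279 bp, 75.4% of the shorter peak, with summits 96 bp apart. Shifts of more than 90 bp from the IDR-thresholded summit were found for 30 of 384 peaks in replicate 3 and 31 of 381 in replicate 4.

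A second, weaker summit lay beyond the 3' end of mrpr-1, between the gene and pcrg-1. In replicate 3 it was at 7200445, 27 bp after the gene, with a signal value of 52.2 at rank 754. In the pooled list it was at 7200430, 12 bp after the gene, with 93.8 at rank 657, and it was not in the IDR-thresholded list. Replicate 4 had no second summit there, and its single peak ran from 7200151 to 7200530, across most of both. In replicate 3 and in the pooled list the summits of the pair were 200 bp apart. The smallest spacing between nuclear summits was 199 bp in each complete list, so the pair lies at about the closest spacing found there. Of the nuclear IDR-thresholded peaks, 19 of 384 (4.95%) had another pooled summit within 200 bp and 87 (22.7%) overlapped another pooled peak. Over all nuclear peaks, most of them weaker, 1.53% had another summit within 200 bp in the pooled list, 1.35% in replicate 3 and 1.52% in replicate 4. The start of pcrg-1 lies 316 bp from that of mrpr-1. Whether the second summit is separate from the first, and which start, if any, it belongs to, was not tested.

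**Figure D2:**
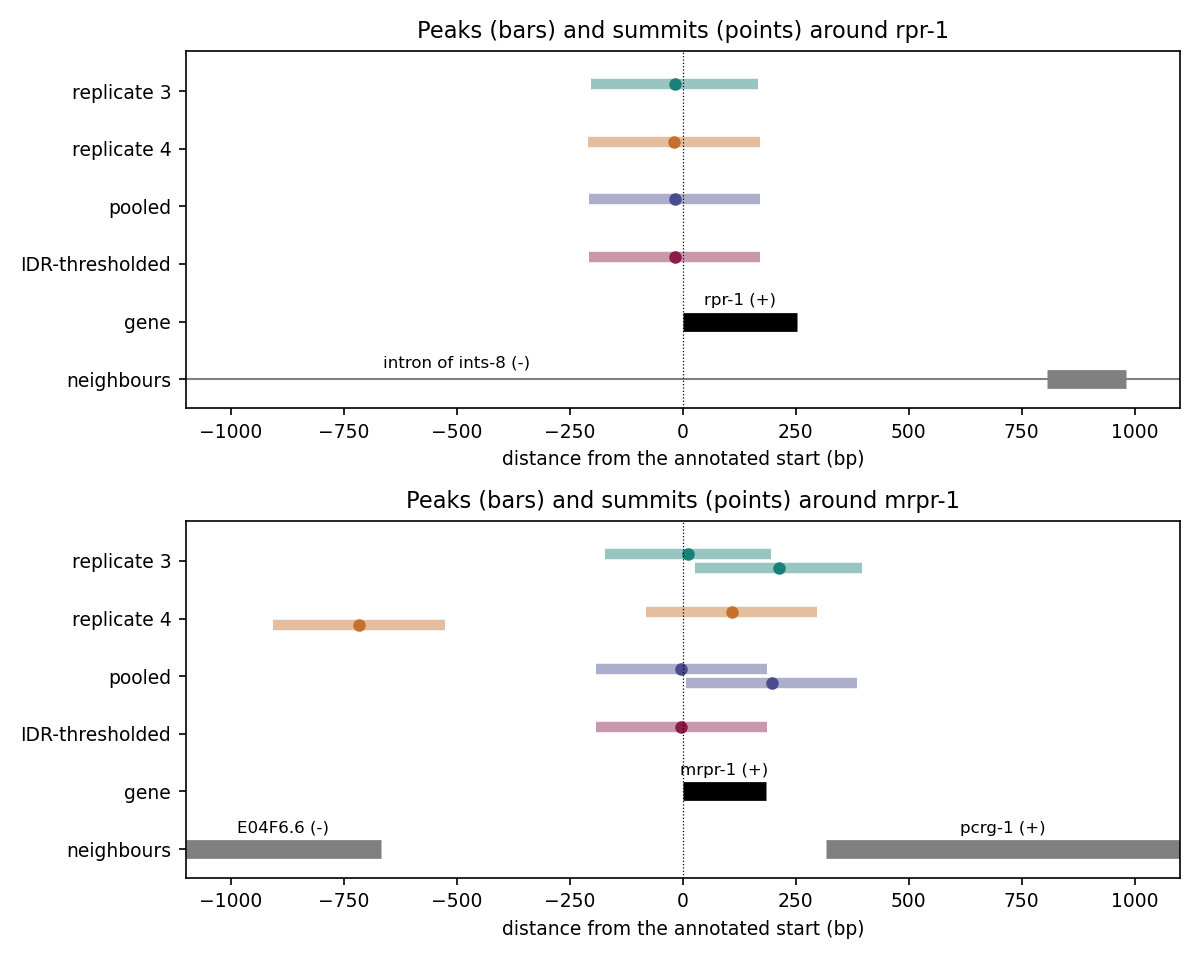
Peaks (bars) and their summits (points) of each list by distance from the annotated start of rpr-1 (top) and mrpr-1 (bottom), in bp, with the genes in black and neighbouring exons or genes in grey. The rpr-1 summits stack 17 to 19 bp upstream of the start, whereas those of mrpr-1 run from 3 bp upstream to 212 bp downstream.

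The wider surroundings differed too. Within 5000 bp of the gene rpr-1 had 3, 2 and 2 summits in the replicate 3, replicate 4 and pooled lists, and mrpr-1 had 5, 6 and 7. In the pooled list the next summits at mrpr-1 were 1389 bp downstream of the start, inside pcrg-1, with a signal value of 69.0 at rank 2684, and 1918 bp upstream, inside E04F6.6, with 65.7 at rank 3358. Replicate 4 also had a summit 716 bp upstream, close to the start of E04F6.6, at rank 22433. The peaks at the RNA genes outranked each of these.

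The sequences of both genes were unique at this word length. None of the 204 words of 50 bases in rpr-1, nor of the 137 in mrpr-1, was found again on either strand of the genome, and none of the 331 in each IDR-thresholded peak was. Repeated words were common in other classes: 72 of 98 snRNA genes (73.5%), 20 of 30 spliced leader genes and 537 of 612 nuclear tRNA genes (87.7%) held such a repeated word. For snoRNA genes it was 32 of 346 (9.25%).

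Set beside other small RNA genes, rpr-1 ranked high and mrpr-1 lay below the median of each class with 3 or more IDR-thresholded peaks. Of the 28 IDR-thresholded peaks stronger than rpr-1, 16 were mitochondrial and 12 nuclear. Among the 12, 2 lay within 500 bp of a snoRNA gene, 2 of a spliced leader gene and 7 of a protein-coding gene, with none near a tRNA or snRNA gene. These counts overlap: both snoRNA peaks, at 390.2 and 289, and the spliced leader peak at 291 were also among the 7. The strongest tRNA peak, with its summit 24 bp inside a gene at 13665555 to 13665673 of chromosome X, reached a signal value of 243. The strongest snRNA peak reached 216, at R07E5.16 on chromosome III, from 10989679 to 10989780. sls-2.4, a spliced leader RNA gene, reached 291 and the snoRNA gene F59C6.15 reached 390.2. The strongest microRNA peak, at mir-51, had 143. mrpr-1, at 124, was below the median of the IDR-thresholded peaks at microRNA genes (128), tRNA genes (130), snoRNA genes (137), snRNA genes (156) and spliced leader genes (188), each class having been selected by the same threshold. Of these peaks, 5 of 7 at microRNA genes, 33 of 56 at tRNA genes, 32 of 43 at snoRNA genes, 2 of 3 at snRNA genes and 5 of 5 at spliced leader genes were stronger than mrpr-1. These comparisons are within 1 list and were not tested, since the peaks were chosen on the same values.

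**Figure D3:**
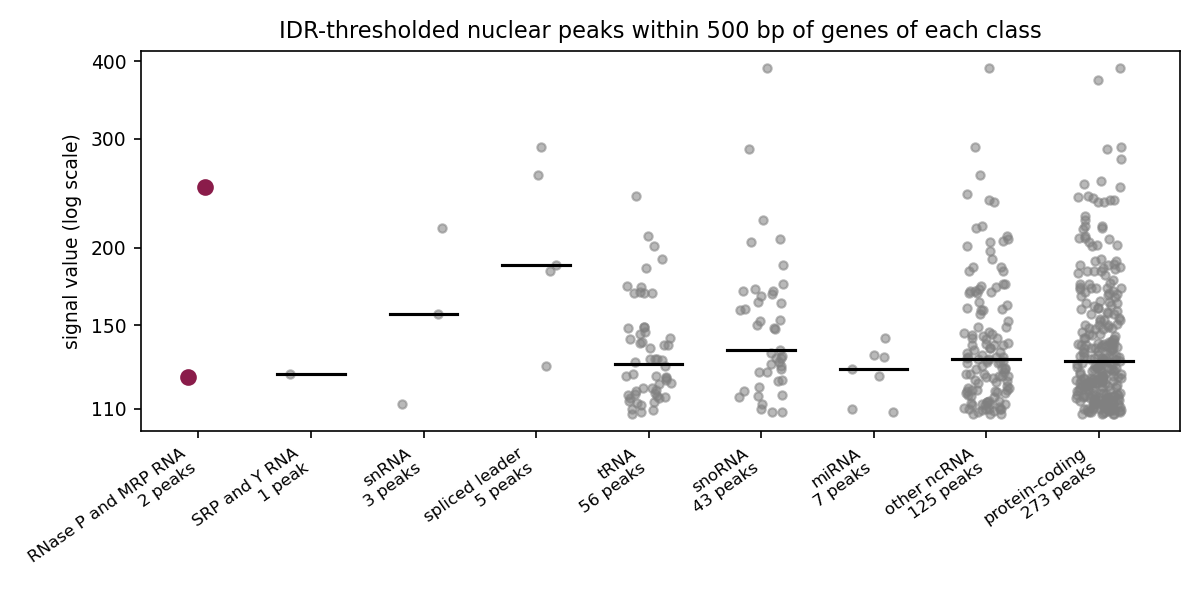
Signal value (log scale) of nuclear IDR-thresholded peaks with a summit within 500 bp of a gene of each class, with 1 point per peak and a bar at the class median. A peak near genes of several classes appears in each. rpr-1 (251) is above every tRNA, snRNA and microRNA peak, and mrpr-1 (124) is below the medians of the microRNA, tRNA, snoRNA, snRNA and spliced leader peaks.

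The share of genes with an IDR-thresholded summit was 68 of 612 for nuclear tRNA genes (11.1%), 45 of 346 for snoRNA genes (13.0%), 6 of 30 for spliced leader genes (20.0%) and 4 of 99 for other snRNA genes (4.04%). It was 2.68% for microRNA genes, 1.79% for protein-coding genes and 0 of 16 for 5S rRNA genes, whose copies are repeated in 15 of 16 cases. A window around the whole gene body gives long genes more room, which is why the protein-coding share is not set against the others.

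The IDR-thresholded summits of both RNA genes lay from 30 bp upstream of the start up to the start itself, a range taken after the values were seen. It held 1 of the 4 snRNA genes with such a summit, R07E5.16, whose summit was 18 bp upstream. It held 1 of the 6 spliced leader genes, sls-2.4, at 19 bp. Of the tRNA genes 9 of 68 had their summit there, and of the snoRNA genes 7 of 45. Measured from the start, the median over tRNA genes was 9 bp and that over snoRNA genes -36 bp. The strongest mrpr-1 summits of replicates 3 and 4, at 12 and 108 bp inside the gene, lay outside the range.

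Other named noncoding RNA genes that polymerase III transcribes in animals had lower pooled signal than rpr-1, and 1 of them, srpr-2.2, was slightly above mrpr-1. The 5 genes named srpr, for the RNA of the signal recognition particle, and yrn-1, which encodes the Y RNA, formed a group of 6, of which 1 had an IDR-thresholded summit. That was srpr-2.2 on chromosome III, with a signal value of 125 at rank 251, against 124 at rank 261 for mrpr-1, and its summit 37 bp inside the gene. In the replicates srpr-2.2 ranked 143 and 1463. The next, srpr-1.2, had a pooled signal value of 106 at rank 422, just past the IDR-thresholded list. yrn-1 had only weak summits, at rank 13307 in replicate 3, 28246 in replicate 4 and 20071 in the pooled list. srpr-1.1 and srpr-3 had no summit within 500 bp in any list. Of the 6 genes 4 hold a repeated word of 50 bases, so reads from near-identical copies may be divided between them or left out.

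The genes most like each of the 2 were sought among 9424 noncoding genes, with piRNA genes and pseudogenes left out. Likeness was the distance between percentile ranks in the replicate 3, replicate 4 and pooled lists. Nearest to rpr-1 were the overlapping C17C3.23 and sls-2.2, a spliced leader gene, on chromosome II, which share a peak ranked 21, 30 and 26, and F16A11.7 on chromosome I, ranked 20, 50 and 36. Nearest to mrpr-1 were C08B11.11 and C08B11.13 on chromosome II, which share a peak ranked 234 and 737 in the replicates, and a gene on chromosome IV from 14033942 to 14034090, ranked 180, 701 and 200. The last 3 are annotated only as ncRNA.

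Upstream of the start both RNA genes hold an arrangement of short words seen at a subset of snRNA genes. The words AACC and TGTC, 7 bases apart on the gene's strand, begin at -66 from the start of rpr-1 and at -68 from that of mrpr-1. The word TATATA begins at -30 in rpr-1 and, as overlapping matches, at -34 and -32 in mrpr-1. The word pair was written down from these sequences after they were seen, and TATATA is a word that the 2 upstream stretches share. The presence of the pair, of TATATA or of both in the 2 genes is therefore no finding, and counts elsewhere are a description. In the 100 bases before the start the pair occurred in 124 of 46890 nuclear genes (0.264%). Among them were 28 of 99 snRNA genes (28.3%), 9 of 30 spliced leader genes (30%), 28 of 346 snoRNA genes (8.09%), 1 of 612 tRNA genes and 16 protein-coding genes. TATATA, which reads the same on both strands, occurred in 5.07% of all genes and in 20 of 99 snRNA genes. Both occurred together in 11 genes (0.0235%): the 2 RNA genes, 7 snRNA genes, 1 snoRNA gene and 1 piRNA gene.

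The position of the pair is given here for snRNA genes with and without TATATA. In the 20 with TATATA the pair was found 7 times and began at -66 or -67 each time, beside -66 and -68 at the RNase P and MRP RNA genes. In the 79 without TATATA it was found 21 times, from -71 to -55 with a median of -58, and 3 of the 21 began at -66 or further upstream. At all 9 spliced leader genes with the pair it began at -59. Many snRNA and spliced leader genes are copies of each other, so these counts are not independent. The pairs with TATATA were all at genes named R07E5.16, F54D8.7 or F54C8.10. Genes named R07E5.16 that held the pair without TATATA also had it at -66 or -67. Whether the position goes with TATATA or with the gene family was not tested. Of the 14 snRNA genes that share the name R07E5.16, 12 held TATATA, 5 the pair and 3 both, and 1 had an IDR-thresholded summit.

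**Figure D4:**
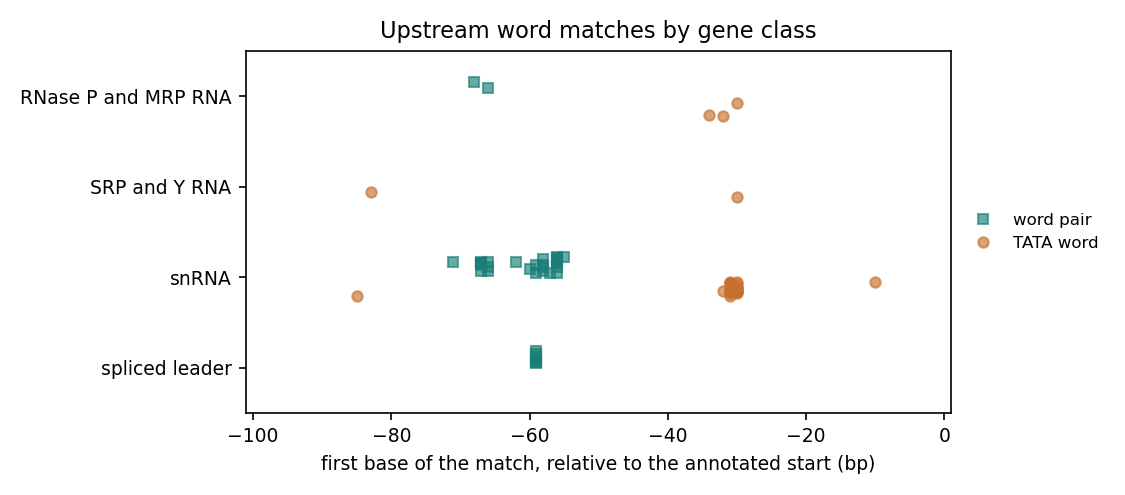
First base of each match of the word pair (squares) and of the TATA word (circles) in the 100 bases upstream, by distance from the annotated start in bp, with 1 point per match. The RNase P and MRP RNA genes have the pair at -66 and -68 and the TATA word from -34 to -30, a range that also holds 18 of the 20 snRNA matches of the TATA word.

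The upstream 100 bases of 3 other genes are printed to show the words in place, with the same capitals; where the pair is absent, TGTC alone is marked. R07E5.16, on chrIII:10989579-10989678, has both words and the IDR-thresholded summit described above. sls-2.8, on chrIII:12250365-12250464, has the pair at -59 and no TATATA. yrn-1, on chrIV:7499408-7499507, lacks AACC at that spacing but has TGTC at -55 and TATATA at -30, where rpr-1 has them too, and a second TATATA at -83. All 3 lie on the plus strand and end at the base before the start.

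R07E5.16: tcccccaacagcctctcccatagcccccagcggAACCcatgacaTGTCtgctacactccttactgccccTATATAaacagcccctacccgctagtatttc
sls-2.8: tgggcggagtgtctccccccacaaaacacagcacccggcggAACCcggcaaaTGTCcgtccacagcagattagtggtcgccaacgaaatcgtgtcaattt
yrn-1: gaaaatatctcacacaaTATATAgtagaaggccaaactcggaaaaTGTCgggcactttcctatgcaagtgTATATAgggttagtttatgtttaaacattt

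Other words and the 3' ends were also compared. TATAAA was present upstream of mrpr-1 and not of rpr-1 (17.5% of all genes, both strands), and GAGAGA upstream of neither (6.75%). TATA occurred upstream of both and in 40.0% of all genes. The 2 upstream stretches shared 4 words of 6 bases, which make up GTATATA (1.09% of genes on the gene's strand), TATATAA (2.43%) and GGGTGT (0.657%), the last at -58 in rpr-1 and -39 in mrpr-1. Neither gene matched the A box or the B box of tRNA genes, on either strand, whereas 57 and 394 of 612 tRNA genes matched the same exact words. A run of T, the usual stop signal of RNA polymerase III, covers bases 252 to 256 of rpr-1, across its annotated end, and bases 185 to 188 of mrpr-1, likewise. mrpr-1 also has a run of 4 T inside the gene, at bases 124 to 127, and another after its end, at bases 195 to 198. A run of 4 T within 10 bases of the end was found at 94.0% of tRNA genes, at all 6 SRP and Y RNA genes, at 14 of the 14 genes named R07E5.16, at 13 of 85 other snRNA genes, at 1 of 30 spliced leader genes and at 34.2% of all nuclear genes.

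The upstream sequence of rpr-1 was rich in G and C. Its 100 bases were 69% GC, above 99.98% of nuclear genes, and those of mrpr-1 were 48% GC, above 93.99%. The median over all nuclear genes was 31%. Whether base composition has a part in the signal at these peaks was not tested.

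Genes for proteins of RNase P and MRP, of tRNA processing and of RNA polymerase III were also looked at, together with akir-1. A list of 27 protein-coding genes was taken by name: 4 popl genes, for homologues of yeast Pop proteins of RNase P and MRP, 5 genes of tRNA processing, 17 of RNA polymerase III and its factors, and akir-1. None of the 27 had an IDR-thresholded summit within 500 bp, where 1.79% of protein-coding genes did, so a count of 0 is close to that share. Pooled summits were found at 10 of 27 (37.0%, against 62.8% of protein-coding genes). A window around the gene body gives long genes more room and gene length was not matched, so nothing is read from that difference. The strongest pooled summits were within 500 bp of rpc-25, a polymerase III subunit gene (signal value 65.3, rank 3456), akir-1 itself (61.5, rank 4512) and snpc-1.2, a SNAPc subunit gene (53.6, rank 7913). The rpc-25 and snpc-1.2 summits lay 1200 and 571 bp from the nearest transcript start, the former outside the gene. The transgene also carries the akir-1 promoter, and whether reads at akir-1 came from that copy was not tested. Of the popl genes, popl-1 alone had a pooled summit, at rank 19838, while popl-4 and popl-5 had none in any list.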

How the data were processed

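AKIR-1::GFP ChIP-seq peaks of 2 replicates were analysed as deposited on ce11. Per the texts deposited with the files, the authors called 1 list per replicate and 1 from the pooled replicates, each with a further shared alignment set, and made the IDR-thresholded list from them. For the aligner, the peak caller and the IDR threshold, names and settings were "not given in the sources used here". Each peak's signal value and −log10 q-value are the authors' deposited values, and depth is unknown. Columns without a group numbered 0.

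Summits were taken from the deposited offsets and positions printed from 1. The gene annotation was Ensembl release 115 on WBcel235, with sequence from RefSeq, and peaks ended within every chromosome. A gene had a summit when one lay within 500 bp of its body, and the strongest was used. This window differs from a promoter window around starts, so shares per class differ from such counts. Words were sought in 100 bases upstream.

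The 2 genes, the lists and the comparisons were chosen with earlier results of these data known. Genes were named by fixed rules: both RNA genes, neighbours within 2000 bp, the strongest of each RNA class, the 3 most alike, and the 3 partner genes with the highest pooled signal. The SRP and Y genes, popl-1, popl-4, popl-5, sls-2.8, the word pair and TATATA were singled out after their values were seen. No test was run. Counts of genes with a summit equalled those of bedtools 2.31.1 in 4 of 4 lists. Work used Python 3.11.15, numpy 2.4.6, pandas 2.3.3 and matplotlib 3.10.9.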

Additional observations from a re-analysis of the deposited data

How the results depend on the processing

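Of 36 alternatives to the values above, 25 gave the same value within the spread between replicates or within 1.5 times a count, and 11 moved. The replicates lay further apart at mrpr-1 than at rpr-1, so the same value is a looser label for mrpr-1. A further 2 alternatives, which took the 400 strongest pooled peaks, are not counted, since those are the same peaks as the IDR-thresholded list. Both genes had an IDR-thresholded summit with windows of 250 and 1000 bp, from the start and by any overlap, but 1 did, rpr-1, among the strongest 200. The windows, the start and the overlap could not change that count, since the summits lay 17 and 3 bp from the starts. Other labels of same were also fixed in advance: the nearest summit at rpr-1, the middle of the peak, and partner genes within 250 bp. The 25 is therefore no measure of robustness. With 1 replicate left out the count of 2 ranged from 1, without replicate 3, to 2. Both genes had a summit within 500 bp in the complete list of each replicate, but mrpr-1, at rank 733, was not among the 400 strongest of replicate 4. Among the 400 strongest of each replicate 1 gene had overlapping peaks. The pooled rank of rpr-1 was 124 by q-value, where 247 peaks tie, and 13 among nuclear peaks. Leaving out a replicate gave ranks of 24 to 38 for rpr-1 and 205 to 733 for mrpr-1, and summits at -19 to -17 bp and 12 to 108 bp from the start. With 200 bases upstream the genes shared 16 words of 6 bases, and with 50 bases 3. With the word pair 6 or 8 bases apart, settings added after the sequences were seen, 0 of the 2 genes held it. Lists without read counts do not show how far depth limits these ranks. No paired analysis was possible because there is 1 group.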
